A study of Mus musculus with 8 samples.

Results

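The NF-kappaB family and its inhibitors were described by 10 genes chosen by name: the subunits Nfkb1, Nfkb2, Rel, Rela and Relb, and the inhibitors and nuclear cofactors Nfkbia, Nfkbib, Nfkbie, Nfkbiz and Bcl3. All 10 were among the 35275 genes of the deposited expression table and among the 11019 genes tested. RNA was sequenced from tumor-associated macrophages sorted as CD11b+ F4/80+ Ly6G- Ly6C- cells. They came from MC38 tumors, a mouse colon carcinoma line, grown for 21 days after 100000 cells were placed under the skin of female C57BL/6J mice aged 6 to 8 weeks. Both groups carried Atg5flox/flox, an allele of the autophagy gene Atg5 that Cre can delete. The 4 mice of the Atg5 WT group had no Cre named in their labels, and the 4 mice of the Atg5 KO group also carried LysMcre, a Cre placed in the Lyz2 gene and active in macrophages, monocytes and neutrophils. The labels name each library as a separate mouse.

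The Atg5 RNA went against the label of the knockout group. It was 6.73, 3.50, 3.93 and 3.91 FPKM (fragments scaled by gene length and library total) in Atg5 WT mice 1 to 4. It was 16.2, 13.8, 12.8 and 13.3 FPKM in the libraries labelled Atg5 KO, with no overlap. A total over the gene does not show whether the floxed segment was removed. Lyz2 was lower in the KO-labelled libraries, at 3022 ± 310.6 against 5249 ± 825.5 FPKM (SD, n = 4 per group). The second group is called the KO-labelled group throughout, and each direction below is drawn from those labels.

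NF-kappaB factors are dimers of Rel-homology proteins that wait in the cytoplasm bound to IkappaB proteins. Signals from Toll-like, interleukin-1 and tumor necrosis factor receptors activate the IkappaB kinase, IkappaB is degraded, and dimers such as p50 with RelA or c-Rel enter the nucleus. A separate noncanonical route, through the kinase NIK, processes the Nfkb2 product p100 to p52, which pairs with RelB. In macrophages the pathway drives cytokine and chemokine genes, and it also induces several of its own subunits and inhibitors.

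The promoters of the members were searched for the kappaB motif, the sequence bound by these dimers, because several members are known targets of the pathway. RefSeq (GRCm38.p6) gave promoter windows of 300 bases for 7 of the 10 members, from 250 bases before the start to 50 bases from it. The motif, read on both strands, was present in the windows of 5 members (Nfkb2, Rel, Nfkbia, Nfkbie and Bcl3) and absent from those of Rela and Nfkbib. Of all 32851 promoter windows, 8.46% held it. Of the 12936 windows at least as GC-rich as the least GC-rich member window (56.3%), 12.8% held it. The windows below are chr19:46304487-46304786 (plus strand), chr11:23770920-23771219 (minus strand), chr12:55492598-55492897 (minus strand), chr17:45555450-45555749 (plus strand), chr7:19822706-19823005 (minus strand) and chr7:28766595-28766894 (minus strand). They are shown 5′ to 3′ on the gene's strand with the motif in capitals, Nfkbib being the example without a match.
Nfkb2: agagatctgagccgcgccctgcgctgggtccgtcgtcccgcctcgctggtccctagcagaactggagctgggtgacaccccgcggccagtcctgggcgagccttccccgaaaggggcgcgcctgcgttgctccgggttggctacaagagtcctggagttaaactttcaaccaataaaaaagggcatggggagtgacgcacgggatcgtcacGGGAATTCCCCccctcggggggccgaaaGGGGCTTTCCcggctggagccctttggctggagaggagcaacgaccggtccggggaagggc
Rel: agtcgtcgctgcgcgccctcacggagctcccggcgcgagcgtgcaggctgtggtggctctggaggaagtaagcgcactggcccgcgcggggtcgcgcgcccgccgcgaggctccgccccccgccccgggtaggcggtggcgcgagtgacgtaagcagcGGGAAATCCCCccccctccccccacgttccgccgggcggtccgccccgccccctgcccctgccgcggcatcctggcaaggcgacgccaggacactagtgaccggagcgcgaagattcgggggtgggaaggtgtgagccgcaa
Nfkbia: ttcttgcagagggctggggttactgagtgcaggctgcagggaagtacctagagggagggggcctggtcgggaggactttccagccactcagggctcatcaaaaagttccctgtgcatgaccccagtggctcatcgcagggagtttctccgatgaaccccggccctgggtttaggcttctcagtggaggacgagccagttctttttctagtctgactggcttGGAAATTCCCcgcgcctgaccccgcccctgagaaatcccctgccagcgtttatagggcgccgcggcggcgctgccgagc
Nfkbie: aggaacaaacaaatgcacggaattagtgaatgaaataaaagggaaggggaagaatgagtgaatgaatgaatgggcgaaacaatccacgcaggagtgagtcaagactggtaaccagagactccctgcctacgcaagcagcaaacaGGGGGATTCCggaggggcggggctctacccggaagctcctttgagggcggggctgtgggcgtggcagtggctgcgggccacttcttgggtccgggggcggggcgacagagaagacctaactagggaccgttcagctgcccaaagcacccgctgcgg
Bcl3: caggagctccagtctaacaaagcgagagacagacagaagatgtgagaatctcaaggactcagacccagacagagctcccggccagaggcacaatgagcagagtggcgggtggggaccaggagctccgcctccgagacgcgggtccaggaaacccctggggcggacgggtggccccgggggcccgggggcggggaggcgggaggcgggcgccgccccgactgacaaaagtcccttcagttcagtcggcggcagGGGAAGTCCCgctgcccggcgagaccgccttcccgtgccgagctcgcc
Nfkbib: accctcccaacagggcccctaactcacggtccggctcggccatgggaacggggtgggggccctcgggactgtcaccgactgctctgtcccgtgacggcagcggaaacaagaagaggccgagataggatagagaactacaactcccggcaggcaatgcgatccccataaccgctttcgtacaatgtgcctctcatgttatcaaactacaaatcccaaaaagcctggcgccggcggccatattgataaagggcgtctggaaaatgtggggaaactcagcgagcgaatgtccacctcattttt

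Positions count from the start site, with no position 0. The capitals lie at -92 to -82 in Rel, -29 to -20 in Nfkbia, -106 to -97 in Nfkbie and 3 to 12 in Bcl3. In Nfkb2 they lie at -39 to -29 and at -11 to -2. Overlapping matches, on the same or the opposite strand, are merged into 1 capital run. A match is a description of the letters in this window and not of binding, and nothing follows for a gene without one.

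**Figure D1:**
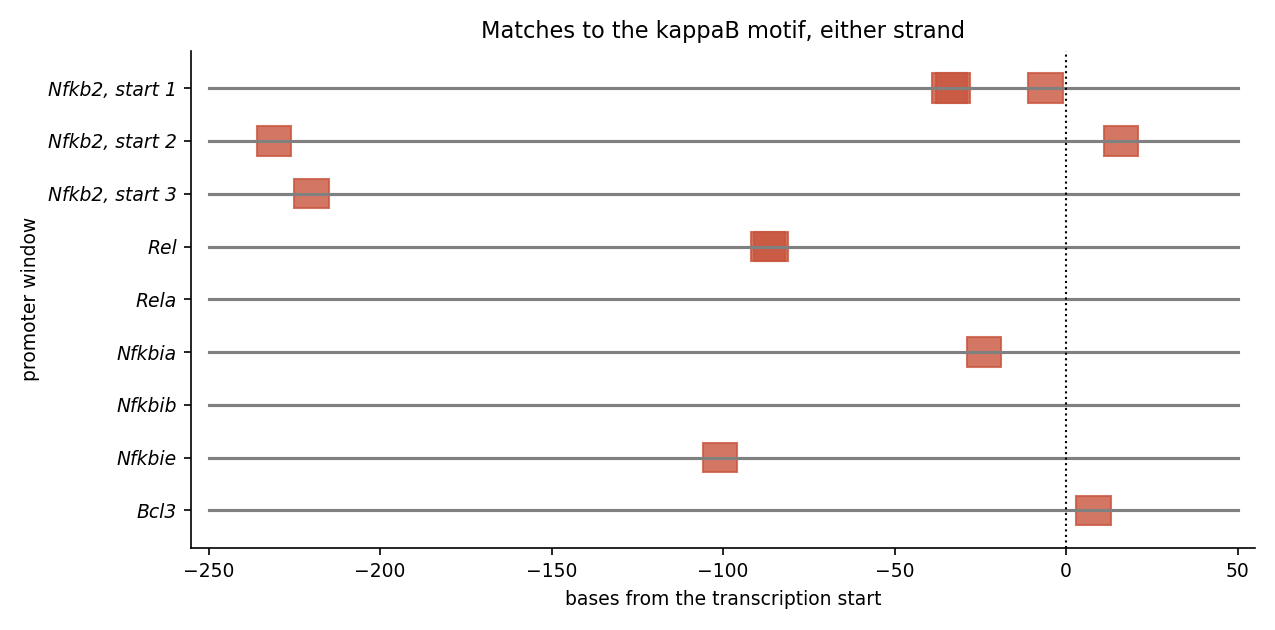
Promoter windows of the members found in RefSeq, by distance from the start site in bases, with each kappaB motif match marked. The windows of Nfkb2, Rel, Nfkbia, Nfkbie and Bcl3 hold at least 1 match, and those of Rela and Nfkbib hold none.

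Nfkbia, which encodes IkappaBalpha, the inhibitor that is degraded and remade with each round of signalling, had the highest level of the family. On FPKM, a scale per gene length, its mean over the 8 libraries was 549.2. Nfkbie (IkappaBepsilon) followed at 164, and Nfkbiz (IkappaBzeta, a nuclear cofactor) at 134.1. Below them came Nfkb2 at 86.5, Nfkb1 at 76.9, Bcl3 at 56.9, Rela at 54.2, Rel at 53.8, Nfkbib at 41.6 and Relb at 25.1 FPKM. Of neighbours in that order, Nfkbia and Nfkbie, Nfkbiz and Nfkb2, and Nfkbib and Relb did not overlap across the 8 libraries. All the other neighbours overlapped. Nfkbia alone made up between 39.9% and 48.2% of the summed FPKM of the family. The 5 inhibitors together were 3.09 ± 0.114 times the 5 subunits in the Atg5 WT group and 3.32 ± 0.209 times in the KO-labelled group (SD, n = 4 each), with overlapping groups. The members' values rested on 1153 to 22375 fragments each.

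Before the groups are compared, 2 features of the libraries bear on the family. Both mouse 1 libraries stood apart from the other 6. On the first principal component, which held 58.94% of the variance, they lay at -34.7 (Atg5 WT) and -37.8 (KO-labelled), and the others between -3.71 and 21.3. The libraries also differed with the GC content of the genes. Genes were called GC-rich at 54.4% GC or above and GC-poor at 44.9% or below. The median deviation of the GC-rich genes minus that of the GC-poor genes was -0.52 in Atg5 WT mouse 1, -0.50 in KO-labelled mouse 1 and -0.35 in KO-labelled mouse 2 on the log2 scale. It lay between 0.21 and 0.38 in the other 5 libraries.

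Of the 10 members, 6 (Nfkb2, Rela, Relb, Nfkbib, Nfkbie and Bcl3) have GC-rich transcripts. These 6 were lower in the mouse 1 libraries than in the other 6 libraries by -0.66 (Bcl3) to -0.26 (Rela) on log2(FPKM + 1). The other 4, with GC shares of 42.5% (Rel) to 52.9% (Nfkbia), differed by -0.06 to 0.15. In Relb, Nfkbib, Nfkbie and Bcl3 both mouse 1 libraries lay below the 6 others, which held for 14.7% of all genes tested. In no member did both lie above the 6 others, beside 29.8% of genes. With each library's trend over GC removed, both mouse 1 libraries lay below the 6 others for none of the 10 members and for 15.5% of genes. The mouse 1 libraries also held the highest summed fibroblast markers, 109.7 FPKM (Atg5 WT) and 217.3 FPKM (KO-labelled), against 18.2 to 35.7 FPKM in the other 6. The part of GC or of fibroblast RNA in the differences between libraries or groups was not tested. Values without mouse 1 or without the GC trend are given for the members and, further on, for the other pathway genes named. The removal of the GC trend was not planned and was added after the data were seen.

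**Figure D2:**
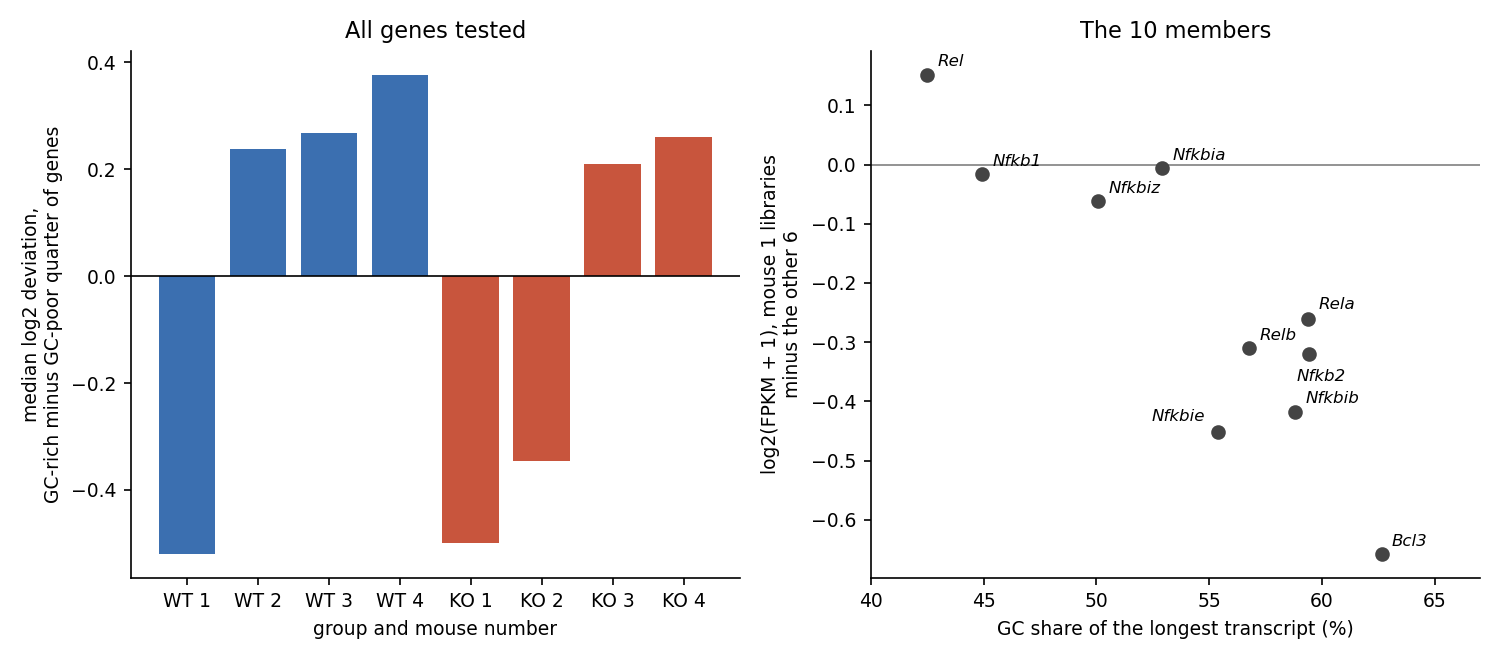
Left, for each library, the median log2 deviation of GC-rich genes minus that of GC-poor genes, which was below 0 in both mouse 1 libraries and in KO-labelled mouse 2. Right, for each member, the GC share of its longest transcript against the difference of log2(FPKM + 1) between the mouse 1 libraries and the other 6, from 0.15 for Rel to -0.66 for Bcl3.

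No member passed the test between the groups, and for none were the groups separate over the 8 libraries. Separate groups were seen in 1.15% of all genes on the higher side and 0.59% on the lower side. Limma on log2(FPKM + 1) with Benjamini-Hochberg adjustment called 0 of the 10 at an adjusted p under 0.05, and 0% of all 11019 genes. At an unadjusted p under 0.05 it gave 0 members and 2.02% of all genes (223, of which 132 were higher and 91 lower in the KO-labelled group). The adjusted p of every member was 0.999. For each member an exact two-sided permutation test over the 70 assignments of 4 libraries against 4 is also given, whose smallest possible p is 0.0286. Fewer cells of a type and less RNA per cell cannot be told apart in such bulk libraries. Leaving out Atg5 WT mouse 1 moved the count of genes at an unadjusted p under 0.05 to 833, and 4 members (Nfkb2, Relb, Nfkbib and Bcl3) were then lower at that threshold, beside 2.77% of genes. Their log2 differences without that library were -0.28, -0.31, -0.45 and -0.66, and that of Rela was -0.23. All of these members have GC-rich transcripts. The libraries left with low GC-rich genes were then both KO-labelled, mice 1 and 2. With the GC trend removed from all 8 libraries, the differences of Nfkb2, Relb, Nfkbib and Bcl3 were -0.04, -0.13, -0.21 and -0.27. The part of GC in the fit without Atg5 WT mouse 1 was not tested. With array weights, which give unusual libraries less say, 5 members were lower (Nfkb1, Nfkb2, Relb, Nfkbib and Bcl3), beside 4.67% of genes. None passed the adjustment without Atg5 WT mouse 1 or with array weights.

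Among the subunits, Rela encodes the transactivating partner of the common p50 dimer. Its level was 46.0, 58.8, 59.2 and 63.3 FPKM in Atg5 WT mice 1 to 4 and 47.9, 46.0, 56.7 and 56.1 FPKM in KO-labelled mice 1 to 4. The groups overlapped, with the low values in both mouse 1 libraries and in KO-labelled mouse 2. The difference, KO-labelled minus Atg5 WT, was -0.13 ± 0.13 (SE, exact permutation p = 0.257).

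Nfkb1, the gene of p105 and p50, measured 75.4, 83.8, 81.7 and 75.0 FPKM in Atg5 WT mice and 75.8, 96.7, 68.3 and 58.9 FPKM in KO-labelled mice. The KO-labelled values lay on both sides of the narrow Atg5 WT range. The difference was -0.10 ± 0.15 (SE, exact permutation p = 0.6).

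Rel, the gene of c-Rel, showed the same arrangement more widely. It measured 53.9, 51.3, 54.8 and 49.9 FPKM in Atg5 WT mice and 59.2, 85.4, 41.4 and 34.2 FPKM in KO-labelled mice. Mice 1 and 2 of the KO-labelled group lay above every Atg5 WT library, and mice 3 and 4 lay below every one. The group means were nearly equal, with a difference of -0.02 ± 0.24 (SE, exact permutation p = 0.971), while the SD of log2(FPKM + 1) was 0.06 in the Atg5 WT group and 0.57 in the KO-labelled group.

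The subunits of the noncanonical route were both lower on average without passing the test. Nfkb2 measured 68.9, 93.2, 100.1 and 103.5 FPKM in Atg5 WT mice and 76.0, 94.4, 83.5 and 72.6 FPKM in KO-labelled mice. The lowest value of all was Atg5 WT mouse 1, so the groups overlapped, and the difference was -0.15 ± 0.15 (SE, exact permutation p = 0.371). Relb, the p52 partner, measured 20.6, 26.3, 30.3 and 31.0 FPKM in Atg5 WT mice and 21.5, 23.6, 24.8 and 23.1 FPKM in KO-labelled mice. Here too Atg5 WT mouse 1 was the lowest of the 8, while the other 3 Atg5 WT libraries lay above every KO-labelled one. The difference was -0.19 ± 0.14 (SE, exact permutation p = 0.229).

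Among the inhibitors, Nfkbia was the most even. It measured 538.4, 531.3, 512.4 and 571.8 FPKM in Atg5 WT mice and 555.2, 605.6, 542.8 and 535.7 FPKM in KO-labelled mice. The ranges overlapped, with the highest value in KO-labelled mouse 2. The difference was 0.06 ± 0.09 (SE, exact permutation p = 0.371).

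Nfkbie measured 117.9, 184.7, 185.2 and 184.3 FPKM in Atg5 WT mice and 138.2, 191.2, 170.9 and 139.1 FPKM in KO-labelled mice. Atg5 WT mice 2 to 4 were nearly equal, and mouse 1 lay far below them. The difference was -0.06 ± 0.18 (SE, exact permutation p = 0.83).

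Nfkbib encodes IkappaBbeta, another IkappaB protein that holds NF-kappaB dimers in the cytoplasm. It measured 33.7, 50.9, 50.9 and 49.7 FPKM in Atg5 WT mice and 31.8, 34.6, 40.3 and 40.9 FPKM in KO-labelled mice. It was the 1 member lower in the KO-labelled library of every mouse number, which held for 6.52% of all genes. The groups overlapped through Atg5 WT mouse 1. The difference was -0.31 (95% interval -0.66 to 0.04, exact permutation p = 0.114).

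Bcl3 encodes a nuclear IkappaB-like protein that binds p50 and p52 dimers on DNA. It measured 38.5, 83.5, 80.5 and 62.9 FPKM in Atg5 WT mice and 38.6, 55.4, 49.96 and 45.7 FPKM in KO-labelled mice. Both mouse 1 libraries were the lowest of their groups and nearly equal, and the other 3 Atg5 WT libraries lay above every KO-labelled one. The difference of -0.43 was the largest of the family (95% interval -0.95 to 0.10, exact permutation p = 0.2).

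Nfkbiz, whose product is induced by Toll-like receptor signals and works with p50 at a subset of cytokine promoters, measured 122.8, 127.0, 130.0 and 132.3 FPKM in Atg5 WT mice and 134.7, 185.7, 126.8 and 113.9 FPKM in KO-labelled mice. The 4 Atg5 WT values were close, and KO-labelled mouse 2 stood above the other 7 libraries. The difference was 0.11 ± 0.15 (SE, exact permutation p = 0.714).

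**Figure D3:**
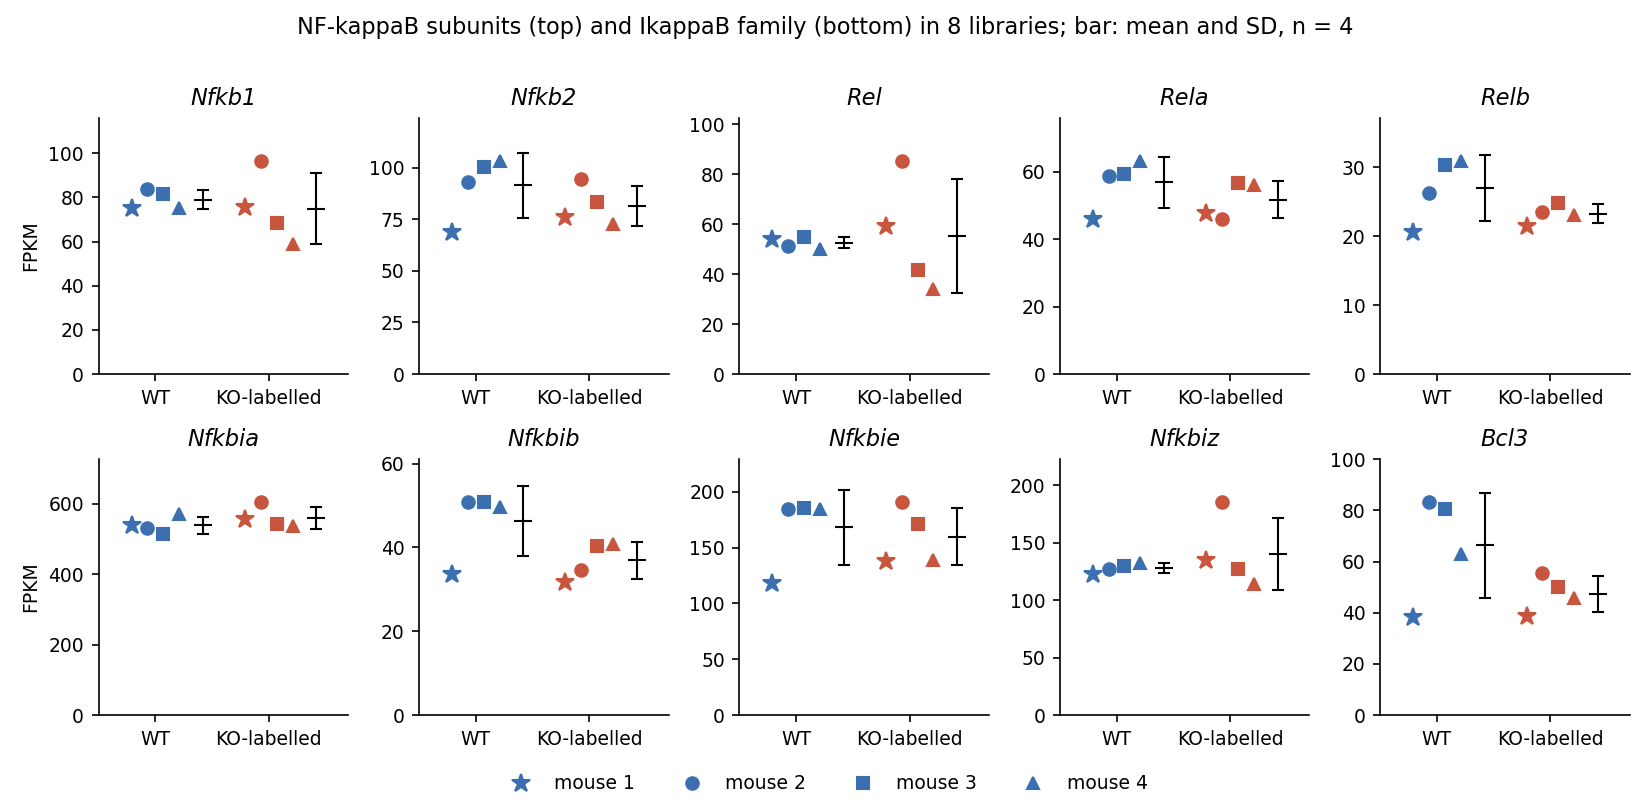
FPKM of each member in the 8 libraries, 1 point per mouse, by group (Atg5 WT and KO-labelled). The groups overlap for every member, and KO-labelled mouse 2 is the highest of the 8 for Nfkb1, Rel, Nfkbia, Nfkbie and Nfkbiz.

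**Figure D4:**
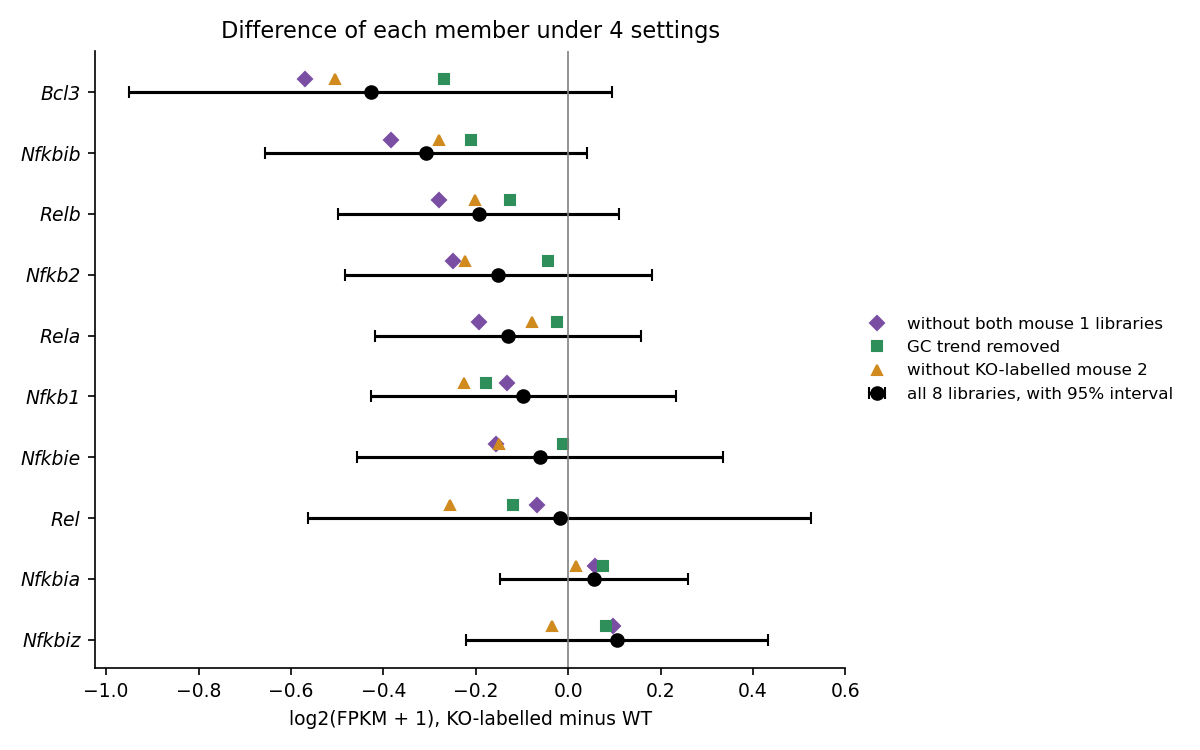
Difference of log2(FPKM + 1), KO-labelled minus Atg5 WT, for each member with its limma 95% interval. The intervals of all 10 members include 0, with estimates from -0.43 for Bcl3 to 0.11 for Nfkbiz.

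Without both mouse 1 libraries, 4 members had separate groups in mice 2 to 4, all lower in the KO-labelled group: Bcl3, Nfkbib, Relb and Rela. The background for separate, lower groups was 4.43% of all genes, and 0 members had separate, higher groups, against 10.3%. Bcl3 was 75.6 ± 11.1 FPKM in Atg5 WT mice and 50.4 ± 4.88 in KO-labelled mice (SD, n = 3 each), a ratio of 0.666. Nfkbib was 50.5 ± 0.681 against 38.6 ± 3.47 FPKM, a ratio of 0.764. Relb was 29.2 ± 2.56 against 23.8 ± 0.882 FPKM, and Rela 60.4 ± 2.47 against 52.9 ± 6.02 FPKM. With 3 against 3 the exact permutation p of each of the 4 was 0.1, the smallest this design can give. In limma, Bcl3, Nfkbib and Relb were lower at an unadjusted p under 0.05, beside 2.18% of genes. None of them passed the adjustment over all genes, which Atg5 alone passed (0.00908% of genes).

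The 4 have GC-rich transcripts, and KO-labelled mouse 2 was among the libraries with low GC-rich genes. With each library's GC trend removed from all 8 libraries, Nfkbib was the 1 member with separate groups, beside 1.1% of the 10980 genes with a GC value, and no member was separate on the higher side, beside 1.18%. Its adjusted level was 5.50 ± 0.09 in the Atg5 WT group and 5.29 ± 0.08 in the KO-labelled group on the log2 scale (SD, n = 4 each), with an exact permutation p of 0.0286, the smallest possible. It was also the 1 member lower at an unadjusted p under 0.05 in limma, beside 1.51% of genes. The Bcl3 difference became -0.27, Relb -0.13 and Rela -0.02, and their groups overlapped. The correction took the SD of Nfkb2 from 0.26 to 0.02 in the Atg5 WT group and from 0.17 to 0.35 in the KO-labelled group. With the mouse number as a block and no GC correction, Bcl3 and Nfkbib were lower at an unadjusted p under 0.05 in limma, beside 3.62% of genes. The same 2 members were lower with the block and the GC correction together, beside 4.15%, and none passed the adjustment in either fit.

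Nfkbib overlaps Sirt2, on the opposite strand of chromosome 7, by 778 bases. No source used here says whether the counting used strand, so reads of Nfkbib and Sirt2 in that overlap cannot be told apart. Sirt2 was 52.2 FPKM in the Atg5 WT group and 46.9 FPKM in the KO-labelled group (difference -0.16, exact permutation p = 0.229). Bcl3 overlaps the low antisense models Gm16175 and Gm16174.

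The other feature of the family was the order of the libraries within the KO-labelled group, which was noticed after the values were seen. Mouse 2 was the highest of the 4 KO-labelled libraries for 7 of the 10 members, beside 18.7% of all genes. Mouse 4 was the lowest for 5, beside 21.8% of genes. Both held together for Nfkb1, Nfkb2, Rel, Nfkbia and Nfkbiz, beside 9.09% of genes. Mouse 2 was the highest of all 8 libraries for 5 members, beside 12.8% of genes.

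With the GC trend removed, the same order covered more of the family. Mouse 2 was then the highest of the KO-labelled libraries for 9 of the 10 members, beside 29.4% of genes, and mouse 4 the lowest for all 10, beside 24.3%. Rela was the exception for mouse 2, and both held together for the other 9, beside 13.4%. Uncorrected, mouse 2 was highest for 5 of 5 members whose promoter window held the kappaB motif, for 0 of 2 without it and for 2 of 3 with no window. After the correction these counts were 5 of 5, 1 of 2 and 3 of 3. The split was made after the order was seen, and no share over all genes with or without the motif was counted. With 2 members lacking the motif, nothing about the motif follows from these counts. The order is that of 4 separate mice with the same label, so it is no group difference.

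The spread within groups depended on the GC trend. The SD of log2(FPKM + 1) was larger in the KO-labelled group for Nfkb1, Rel, Nfkbia and Nfkbiz, 4 of 10 members, beside 56.7% of genes. It was 0.08 against 0.30 for Nfkb1 and 0.05 against 0.30 for Nfkbiz, Atg5 WT first. For Bcl3 it was 0.50 against 0.22. With the GC trend removed, the SD was larger in the KO-labelled group for 9 of 10 members, all but Nfkbib, beside 62.4% of genes. It was then 0.22 against 0.26 for Nfkb1, 0.20 against 0.45 for Rel, 0.08 against 0.33 for Nfkbiz and, in the opposite direction to the uncorrected values, 0.29 against 0.36 for Bcl3.

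Genes outside the family that tracked these members most closely over the 8 libraries were found by the root mean square difference of mean-centred log2(FPKM + 1) profiles among 5312 candidates. For Rel they were Hbegf (0.09), Tnf (0.09), Gpd2 (0.10) and Txnrd1 (0.12). Tnf, the cytokine, was 47.1, 36.9, 44.8 and 43.2 FPKM in Atg5 WT mice and 48.8, 71.2, 36.8 and 30.3 FPKM in KO-labelled mice. It showed the Rel arrangement of a high mouse 2 and a low mouse 4. For Nfkb1 they were Traf3 (0.06), Aff1 (0.06), Arrdc4 (0.06) and Slc11a2 (0.07), and for Bcl3 they were Dedd2 (0.13), Fosl2 (0.14), Smad7 (0.15) and Slc15a3 (0.15). Within the family the nearest profiles were Nfkb2 and Nfkbie (0.087), Nfkb2 and Relb (0.096) and Rela and Relb (0.103).

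**Figure D5:**
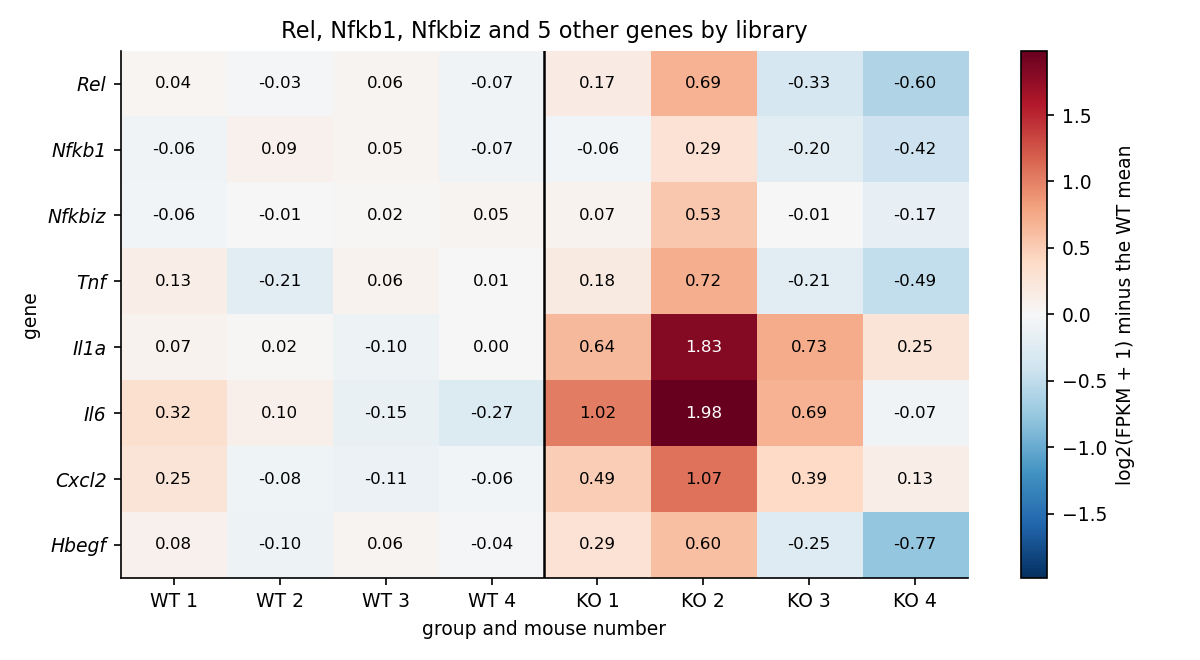
Log2(FPKM + 1) minus the Atg5 WT mean in each library for Rel, Nfkb1, Nfkbiz and, chosen after their values were seen, Tnf, Il1a, Il6, Cxcl2 and Hbegf. KO-labelled mouse 2 is the highest library for every gene shown. KO-labelled mouse 4 is the lowest of the 8 for Rel, Nfkb1, Nfkbiz, Tnf and Hbegf.

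Of 27 target genes of the pathway, 4 were higher at an unadjusted limma p under 0.05 and none lower, and none passed the adjustment. In the blocked fit 7 were higher and 3 lower (Icam1, Cd83 and Gadd45b), among 572 higher and 399 lower genes overall. Without mouse 1, 4 were higher and 2 lower, beside 378 higher and 240 lower among all genes tested. With the GC trend removed 3 were higher and none lower, beside 155 higher and 166 lower among all genes with a GC value. In the fit without these changes the background was 223 of 11019 genes at that threshold (2.02%), and the median difference of the list was 0.09 against 0.03 over all genes. The 4 were the cytokine genes Il1a (log2 difference 0.86) and Il6 (0.90) and the chemokine genes Cxcl2 (0.52) and Cxcl3 (1.41). Their exact permutation p values were 0.0286 for Il1a, 0.0857 for Il6, 0.0571 for Cxcl2 and 0.114 for Cxcl3, and with the GC trend removed 0.0286, 0.0571, 0.0286 and 0.143. Il1a was 31.4, 30.2, 27.8 and 29.9 FPKM in Atg5 WT mice and 46.9, 108.2, 50.1 and 35.8 FPKM in KO-labelled mice, with no overlap and the highest value in mouse 2. Il6 was 7.13, 6.00, 4.89 and 4.41 FPKM against 12.2, 24.8, 9.50 and 5.21 FPKM, and mouse 4 fell among the Atg5 WT values. The order with mouse 2 highest and mouse 4 lowest of the KO-labelled libraries held for 16 of the 27, beside 9.09% of genes, and for 14 of the 27 with the GC trend removed, beside 13.4%. Uncorrected, it held for 4 of the 5 tested IkappaBzeta-dependent genes, in which Il6 was again the 1 higher gene, and for none of 16 immediate-early genes that tissue dissociation is known to induce. The sum of those 16 was lowest of all libraries in KO-labelled mouse 2, at 3226.3 FPKM, against 3258.5 to 4618.2 FPKM in the Atg5 WT group. For those 16 neither the order nor the sum was looked at with the GC trend removed. Their GC shares ran from 42.4% (Klf6) to 67.1% (Jund), and KO-labelled mouse 2 was a library with low GC-rich genes. The order with mouse 2 highest and mouse 4 lowest also held for 4 of the 5 tested dendritic cell markers (Clec9a, Ccr7, Cd209a and Dpp4), and for 2 of the 5 with the GC trend removed. The summed dendritic cell markers were 20.5, 40.9, 39.1 and 22.2 FPKM in KO-labelled mice 1 to 4 and 28.3 to 52.2 FPKM in the Atg5 WT group. The part of tissue dissociation or of dendritic cells in the order of the libraries was not tested.

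The feedback inhibitors of the pathway gave 2 of 13 genes higher at an unadjusted limma p under 0.05, Irak3 (log2 difference 0.25) and Tnfaip3 (0.23), and none lower. Among all 11019 genes tested 132 were higher and 91 lower at that threshold. Tnfaip3, the ubiquitin-editing enzyme A20, was 98.0, 87.0, 87.3 and 106.8 FPKM in Atg5 WT mice and 111.6, 107.7, 115.3 and 107.9 FPKM in KO-labelled mice. All 4 KO-labelled values lay above the Atg5 WT ones, and mouse 2 was the lowest of them. The exact permutation p of Tnfaip3 was 0.0286, but with the GC trend removed the groups overlapped and it was 0.171. Irak3, an inhibitor of receptor signalling, was 7.19 ± 0.738 against 8.75 ± 0.480 FPKM (SD, n = 4 each), with exact permutation p values of 0.0571 and, with the GC trend removed, 0.0857. No feedback inhibitor passed an unadjusted p of 0.05 in limma with the GC trend removed. Without mouse 1, Irak3 was higher and Zc3h12a lower, beside 378 higher and 240 lower among all genes tested.

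Upstream of the family, 0 of 8 IkappaB kinase and NIK pathway kinases, 0 of 22 adaptors and 0 of 9 tested receptors passed an unadjusted p of 0.05 in limma, beside 2.02% of all genes. Their median differences were 0.10, -0.02 and 0.03. In the blocked fit 1 gene of each list passed, Ikbke (higher), Traf5 (lower) and Cd40 (lower), among 572 higher and 399 lower genes overall. Without mouse 1, Ikbke was higher and Map3k14 lower, beside 378 higher and 240 lower genes. With the GC trend removed Traf5 was lower, beside 155 higher and 166 lower genes. Ikbkg, the NEMO scaffold of the kinase, was 4.21 ± 0.291 FPKM in Atg5 WT mice and 4.89 ± 0.349 FPKM in KO-labelled mice (SD, n = 4 each), and its groups did not overlap, though they did with the GC trend removed. Traf5, an adaptor of tumor necrosis factor receptors, was 9.34 ± 1.39 against 7.66 ± 0.198 FPKM, without overlap before or after the GC trend was removed. The other IkappaB-related genes, Nfkbid and Nfkbil1, did not pass either. Of 6 lymphoid targets of the noncanonical route, 1 was expressed enough to test: Tnfsf13b, the cytokine BAFF, at 26.7 ± 2.28 against 21.2 ± 1.33 FPKM (SD, n = 4 each), without overlap before or after the GC trend was removed.

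Markers of other cell types were looked at beside these values. The macrophage markers were high, with all 10 tested and Csf1r, the receptor macrophages depend on, between 347 and 392 FPKM. Their sum ranged from 6371 to 7593 FPKM in the Atg5 WT group and from 4932 to 7298 FPKM in the KO-labelled group, lowest in mouse 2. At an unadjusted p under 0.05 in limma, the complement genes C1qa and C1qb were lower in the KO-labelled group and Itgam, the CD11b gene, was higher, its groups not overlapping. C1qa, C1qb and C1qc were the largest terms of the macrophage sum, at 1283, 1262 and 897 FPKM in KO-labelled mouse 2. In that library C1qb, Csf1r and Cd68 were the lowest of the 8, Itgam was the highest, and the other tested macrophage markers lay between. Of 7 monocyte markers 6 had higher means in the KO-labelled group, beside the higher Il1a, Il6 and Cxcl2. The median difference of the 7 was 0.36, against 0.03 over all genes. Of the 7, F13a1 was higher at that threshold. In the blocked fit 4 were higher, beside 572 higher genes among all tested. The summed monocyte markers were 162.5 to 250.5 FPKM in the Atg5 WT group and 204.2 to 327.1 FPKM in the KO-labelled group, highest in mouse 1. The fibroblast sums of the mouse 1 libraries stood beside their low Relb, Nfkbib, Nfkbie and Bcl3. Of 8 fibroblast markers 5 passed the filter on low values, and Col1a1 was higher in the KO-labelled group at an unadjusted p under 0.05 in limma. All 5 had higher means in the KO-labelled group, with a median difference of 0.64. In the blocked fit 4 of them (Col1a1, Col1a2, Col3a1 and Dcn) were higher at that threshold, beside 572 higher genes among all tested. The summed neutrophil markers, 5 of 9 past the filter, were 36.5 to 62.4 FPKM in the Atg5 WT group. They reached their highest value, 73.9 FPKM, in KO-labelled mouse 2, the library highest for Rel and Nfkb1. Retnlg made up 42.8 FPKM of that value. Of the tested neutrophil markers only Mmp8 was highest in that library. S100a8 and S100a9 were highest in KO-labelled mouse 1, Csf3r in KO-labelled mouse 3 and Retnlg in Atg5 WT mouse 4. Ly6g, a defining neutrophil gene, was listed at 0 in 7 of the 8 libraries. S100a8 and Mmp8 of that list were higher in the KO-labelled group at the same threshold. The part of these cell types in the values of the family was not tested.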

How the data were processed

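RNA was measured in macrophages sorted from 8 tumors, 4 per group, with libraries made by the NEBNext Ultra kit, per the labels' protocols. The submitters' processing notes name STAR, CASAVA and the mm10 genome. No source used here gives the counting tool, whether it used strand or how it treated shared reads. FPKM values of 35275 genes were deposited by the authors. Multiplied by gene length, 100% of them fell on whole fragments within 0.01, with 1 unit size in each library, and the recovered totals were 14799546 to 25555195 fragments. FPKM is relative to the library's total, so a rise of some genes lowers others.

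The test was limma (version 3.58.1, R 4.3.3), two-sided and with a mean-variance trend, applied to log2(FPKM + 1). It covered 11019 genes, those whose mean FPKM reached 1, with Benjamini-Hochberg adjustment over all of them at 0.05. On this scale the change of low genes is understated. The alternatives were a pseudocount of 0.1, no filter, median-of-ratios and TPM scaling, a replicate block, voom on the recovered fragments, array weights, leaving out libraries, and removal of each library's trend over GC. The removal of the GC trend was added after seeing the data. GC came from the longest annotated transcript, for 10980 genes and all 10 members. Every pair of libraries differed by more than sampling noise, the lowest chi-square per degree of freedom being 10.3, so 8 samples were kept.

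The mouse numbers are shared by the groups. Deviations of same-numbered libraries from their group means correlated at 0.841 for mouse 1, 0.208 for mouse 2, 0.458 for mouse 3 and 0.471 for mouse 4. Since all exceed 0.1, the mouse number was used as a pairing in the blocked fits. The main fit, with its SE, intervals and p, and the exact permutation tests did not use this pairing. This pairing comes from the data, since the labels name separate mice. Correlations between libraries of different numbers are not given, so the same-numbered values alone do not show that these mice belong together. The members and gene lists were chosen with earlier results of these data known. Named genes were Atg5, Lyz2, all 10 members, up to 4 genes per list with the smallest p, and for the 3 members that vary most the 4 most similar other genes. Genes given for the order of libraries or for separate groups were chosen after their values were seen.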

Additional observations from a re-analysis of the deposited data

Results flagged for a closer look

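Of 84 groups of 4 libraries examined, 7 had 1 library far from the other 3, and chance gives about 1 in 20. In 6 of the 7 that library was Atg5 WT mouse 1. Among the members, Nfkbib was 33.7 FPKM there against 49.7 to 50.9 in the other Atg5 WT mice, and Nfkbie was 117.9 against 184.3 to 185.2. The related inhibitor gene Nfkbid was 83.1 FPKM against 128.4 to 137.5. Higher there were Tbk1, at 27.7 against 20.6 to 21.2 FPKM, Cxcl2, at 898.9 against 700.8 to 727.4, and Atg5, at 6.73 against 3.50 to 3.93. In the KO-labelled group Traf5 was 7.96 FPKM in mouse 3 against 7.55 to 7.59 in the others.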

How the results depend on the processing

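Over 20 alternative settings no member passed the adjusted threshold. Of 200 member values 189 kept their direction and 11 reversed. With single libraries left out, the differences of the members that reversed ranged from -0.23 to 0.0097 for Nfkb1 and from -0.26 to 0.18 for Rel (lowest without KO-labelled mouse 2, highest without KO-labelled mouse 4 in both). They ranged from -0.22 to 0.0046 for Nfkbie and from -0.036 to 0.20 for Nfkbiz. Rel was also 0.019 with TPM scaling. Nfkbiz was -0.026 with array weights and, in alternatives chosen after seeing the data, -0.040 without both mouse 2 libraries and -0.11 without both mouse 1 libraries and KO-labelled mouse 2. Of 600 values of other named genes, 13 reversed. With single libraries left out, Nfkbil1 ranged from -0.19 to 0.014, Nfkbid from -0.28 to 0.0054, Csf3 from -0.089 to 0.70 and C3 from -0.28 to 0.046. With the GC trend removed, with or without the block, Nfkbil1 was 0.086 and Ebi3 0.019. With array weights Csf3 was -0.051 and Ebi3 0.0084. Without both mouse 2 libraries Csf3 was -0.018 and Ebi3 0.010, and without both mouse 1 libraries and KO-labelled mouse 2 Csf3 was -0.33. The causes were not tested.

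The number of genes past the adjusted threshold was 0 in the main fit and with voom, with 223 and 217 genes at an unadjusted p under 0.05. It was 1 with median-of-ratios scaling, the replicate block, array weights, the GC trend removed, without both mouse 1 libraries, and without those and KO-labelled mouse 2. It was 2 (Atg5 and Col3a1) with the GC trend removed and the block, and 0 to 1 with single libraries left out. The fits with the GC trend removed, with or without the block, were added after seeing the data. The unadjusted count was 540 with no filter, 971 with the block that pairs mouse numbers, 618 without both mouse 1 libraries, 1282 with array weights, 951 with the GC trend removed and the block, 1115 without mouse 1 and KO-labelled mouse 2, and 124 without both mouse 2 libraries. It ranged from 109 to 833 with single libraries left out, lowest without Atg5 WT mouse 3 and highest without Atg5 WT mouse 1. Higher and lower genes numbered 132 and 91 in the main fit. TPM scaling gave 185 higher and 69 lower, and median-of-ratios scaling 107 higher and 141 lower. The block called no member.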
